A study of Mus musculus with 8 samples.

Results

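The genes examined here are the replication-dependent histone genes of the mouse intestinal epithelium, chosen as every gene whose symbol starts with Hist1h, Hist2h, Hist3h or Hist4h and that had at least 10 reads summed over 8 libraries. Of the 23366 gene symbols counted, 68 carry such a name and 62 reached the minimum. They are 6 genes of the linker histone H1, 15 of H2A, 17 of H2B, 12 of H3 and 12 of H4, and they lie in 4 clusters, with 49 genes in Hist1, 9 in Hist2, 3 in Hist3 and 1 in Hist4. Of the 6 symbols below the minimum, 5 were at 0 reads in every library. The rule used names and total reads, and no comparison between groups, but this gene family was picked for description with earlier results of these data known.

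RNA was sequenced from sorted epithelial cells of 6-week-old male mouse littermates. Control mice carried Sox4 floxed/floxed alleles without Cre. Sox4cKO mice carried the same floxed alleles with villinCre, a Cre recombinase driven by the villin promoter that recombines the allele in the intestinal epithelium from embryonic development on. All 4 animals therefore had floxed Sox4 alleles. From each animal, cells positive for the epithelial surface protein CD326 (EpCAM) were sorted into a CD44- gate enriched for villus cells (CD44minus below) and a CD44+ gate enriched for crypt cells (CD44plus below), with 50000 cells per library. Genotype and gate together give 4 groups, with 2 libraries from 2 separate mice in each. No other treatment is named.

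Replication-dependent histone genes supply the proteins that package newly made DNA, and their messages accumulate in S phase and are broken down when replication ends. H2A, H2B, H3 and H4 form the core around which DNA is wound, and H1 binds the linker between cores. Most of these messages carry no poly(A) tail. They end instead just after a conserved stem-loop, which the protein SLBP binds during processing, export and translation. Some members can also be made as longer, polyadenylated messages in cells that no longer divide. In the small intestine, dividing cells are in the crypt and the cells of the villus have left the cycle. Libraries that select poly(A) miss most of this RNA, whereas the libraries here were made from total RNA.

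The stem-loop is the feature that sets these messages apart, and 42 of the 62 members had one in an annotated transcript (GENCODE annotation of GRCm38, release M21), 21 to 58 bases after the end of the coding part. It came in 8 versions of 16 bases, and the following show how they differ between classes, each with 5 bases on either side, 5′ to 3′, and with the stem-loop in capitals.
Hist1h1e: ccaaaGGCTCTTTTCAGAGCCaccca
Hist1h2ab: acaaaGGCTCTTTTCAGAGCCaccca
Hist1h2bb: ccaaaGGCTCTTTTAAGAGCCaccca
Hist1h3e: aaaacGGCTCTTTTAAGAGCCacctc
Hist1h3g: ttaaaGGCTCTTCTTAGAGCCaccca
Hist2h2ac: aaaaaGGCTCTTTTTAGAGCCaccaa
Hist1h4d: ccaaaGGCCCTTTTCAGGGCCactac
Hist1h4b: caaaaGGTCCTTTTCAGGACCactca
Hist2h4: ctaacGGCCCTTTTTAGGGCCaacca
The version of Hist1h1e and Hist1h2ab was shared by 23 members, from H1, H2A, H2B and H3. The version of Hist1h4d was found in 6 members, all H4 genes.

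Gene counts per library ran from 886194 to 13238050, and the CD44minus libraries were the shallow ones: 496 and 1690 reads fell on histone genes in control CD44minus, against 52227 and 31898 in control CD44plus (replicate 1, then replicate 2, as in all value pairs below). Levels are given as CPM, reads scaled to a common library total by TMM (edgeR's trimmed mean of M values). In control CD44minus replicate 1, 51 of the 62 members had under 10 reads and 12 had none. The Sox4cKO CD44minus library of replicate 2 stood apart from the other CD44minus libraries. Its TMM factor was 0.527 against 1.09 to 1.72, and background, estimated from reads on smell and pheromone receptor genes, would give 0.334% of its histone reads against 2.73% to 10.6%. Of its uniquely placed reads 76.8% fell on no gene, against 92.0% to 96.6% in the other CD44minus libraries and 64.6% to 79.3% in CD44plus. Its 4 epithelium markers summed to 14189 CPM, against 2441 to 5201 CPM in the other 7 libraries. The part of these differences in the results below was not tested. Summed crypt markers (Cd44, Lgr5, Olfm4, Ascl2, Mki67) were at 214 to 323 CPM in CD44minus and 5884 to 7952 CPM in CD44plus. Summed villus enterocyte markers were at 6642 to 34777 CPM in CD44minus and 629 to 1009 CPM in CD44plus. Sox4 itself was at 128 and 120 CPM in the control CD44plus libraries and at 17.8 and 25.7 CPM in the Sox4cKO CD44plus libraries. Markers of cells outside the epithelium were also higher in CD44plus. The 5 T cell markers summed to 77.5 to 260 CPM in CD44minus and 893 to 2723 CPM in CD44plus, and the 4 mast cell markers (Mcpt1, Mcpt2, Cpa3, Ms4a2) to 7.90 to 38.1 CPM and 1647 to 16790 CPM, highest in Sox4cKO CD44plus replicate 2. The 4 measured B, plasma and myeloid cell markers summed to 19.5 to 29.7 and 66.5 to 298 CPM. The part of these cells in the gate differences below was not tested.

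Histone transcripts were far more abundant in the crypt-enriched gate in both genotypes. Summed over all 62 members, they were at 334 and 664 CPM in the control CD44minus libraries and at 4667 and 5826 CPM in the control CD44plus libraries, a ratio of group means of 10.51. In Sox4cKO the sums were 328 and 1533 CPM in CD44minus and 4330 and 5636 CPM in CD44plus, a ratio of 5.35. Every CD44plus library was above every CD44minus library, and within CD44minus the Sox4cKO replicate 2 library was the highest. As a share of gene counts without TMM scaling, histone reads took 0.056% to 0.0808% in CD44minus and 0.390% to 0.531% in CD44plus. In bulk samples a larger share of cycling cells and more histone RNA per cell cannot be told apart. H1 genes gave the most counted histone reads, with 42.7% to 57.8% of histone CPM per library. H1 messages are longer than core histone messages, and CPM does not correct for length. Reads with several possible positions were left uncounted, and the classes differ in how distinct their sequences are. The median share of short windows found in no other transcript was 98.85% for H1 and 65.8% for H4. It was 56.2% for H2B, 42% for H2A and 38.05% for H3. The part of uncounted reads in the class shares was not tested. H2A took 11.5% to 16.1% of histone CPM in the CD44minus libraries and 18.2% to 23.1% in the CD44plus libraries, which did not overlap. For H2B the order was the opposite, with 12.8% to 15.8% in CD44minus and 11.9% to 13.5% in CD44plus, and these ranges overlapped.

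**Figure D1:**
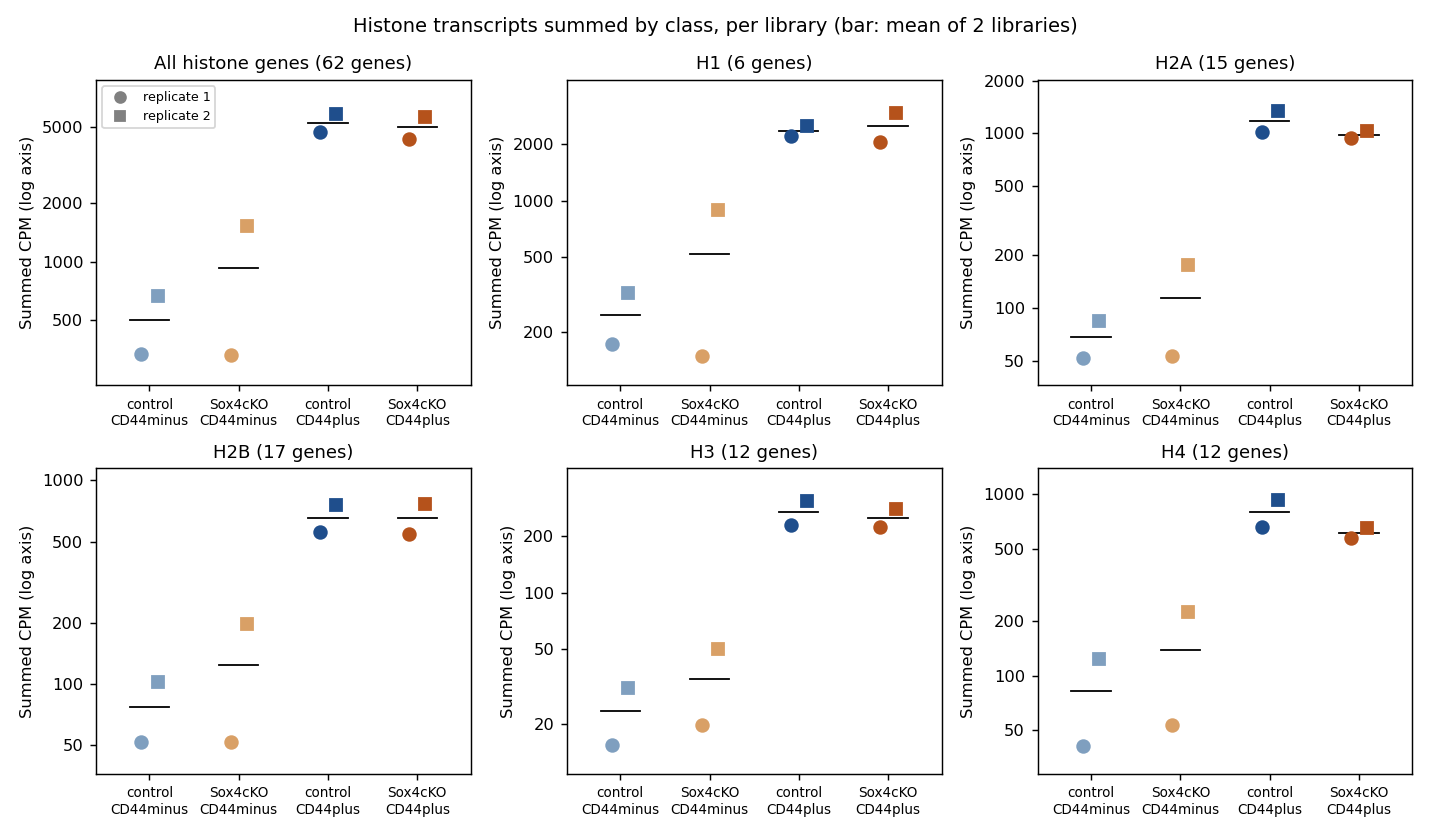
Summed CPM (log axis) of all histone genes and of each class, with 1 point per library (circle for replicate 1, square for replicate 2) and a bar at the mean of the 2 libraries of a group. In each panel all 4 CD44plus points lie above all 4 CD44minus points, and the higher Sox4cKO CD44minus point is replicate 2.

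All 5 classes had this direction and H2A had the largest ratio. In control the ratio of CD44plus to CD44minus group means was 17.3 for H2A, 11.5 for H3, 9.68 for H4, 9.45 for H1 and 8.48 for H2B. In Sox4cKO it was 8.56, 7.21, 4.43, 4.79 and 5.27 in the same order of classes. Within animals the ratio for all members was 14.0 and 8.77 in the control mice and 13.2 and 3.68 in the Sox4cKO mice, and these ranges overlapped. An exact permutation test (two-sided) of 2 against 2 libraries cannot give a p under 0.333, so sums were not tested, and single genes were tested with edgeR across all genes.

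In that test (edgeR's quasi-likelihood test, Benjamini-Hochberg adjustment over 20427 genes, threshold 0.05), many histone genes were higher in the crypt-enriched than in the villus-enriched gate. Of the 62 members, 59 passed the filter on low counts. In control, 32 of these 59 were higher in CD44plus and none was lower, while of all genes tested 2.46% passed, 2.01% as higher and 0.445% as lower. In Sox4cKO, 27 of 59 were higher and none was lower, against 2.59% of all genes in either direction, 1.66% as higher and 0.93% as lower. The median log2 fold change of the tested members was 3.86 in control and 2.86 in Sox4cKO, beside -0.19 and -0.48 over all genes. Members with no read in CD44minus were then set to a lower bound, and the medians became 3.67 and 2.84. DESeq2's size factors in place of TMM shifted the median of all genes to -0.52 and -0.72, and unscaled totals to -0.77 and -0.72, so the members' medians were larger than these shifts. Beside the threshold, 54 of 59 members in control had both CD44plus libraries above both CD44minus libraries and 2 had both below, against 38.7% and 41% of all genes. In Sox4cKO these counts were 52 and 0, against 21.1% and 16.2% of all genes.

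The number of calls rested on few libraries, and the calls over all genes moved with it. In control, the 32 calls became 3 without CD44minus replicate 1 and 0 without CD44minus replicate 2, where 0.167% and 0% of all genes passed in either direction. They became 11 and 3 without control CD44plus replicate 1 or 2 (0.118% and 0.0291% of all genes). Without Sox4cKO CD44minus replicate 1 or 2 they became 53 and 53, each with 1 member lower (Hist1h1t), in fits that called 36.4% and 34.6% of all genes. The 27 calls in Sox4cKO became 48 without Sox4cKO CD44minus replicate 2 (40.9% of all genes) and 2 without Sox4cKO CD44plus replicate 2 (0.0534%). They became 12 and 11 without control CD44plus replicate 1 or 2 (1.11% and 1.18%). Fits of 4 libraries gave 53 calls among 54 members tested in control, with 54.9% of all genes called, and 0 in Sox4cKO, with 0% of all genes. With the animal as a block, 50 and 41 of the members passed, beside 17.9% and 8.38% of all genes. In control, Hist1h1t was the 1 member called lower in the animal block and in the fit of 4 libraries. The median log2 fold change stayed between 3.497 and 4.11 in control and between 2.55 and 4.02 in Sox4cKO when any 1 library was left out. The 2 comparisons share no library, though the fit gives them 1 estimate of the spread, and 25 members passed in both, which is 78.1% of the members called in control and 92.6% of those called in Sox4cKO. For all genes called higher, the corresponding shares were 52.1% and 63.1%.

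**Figure D2:**
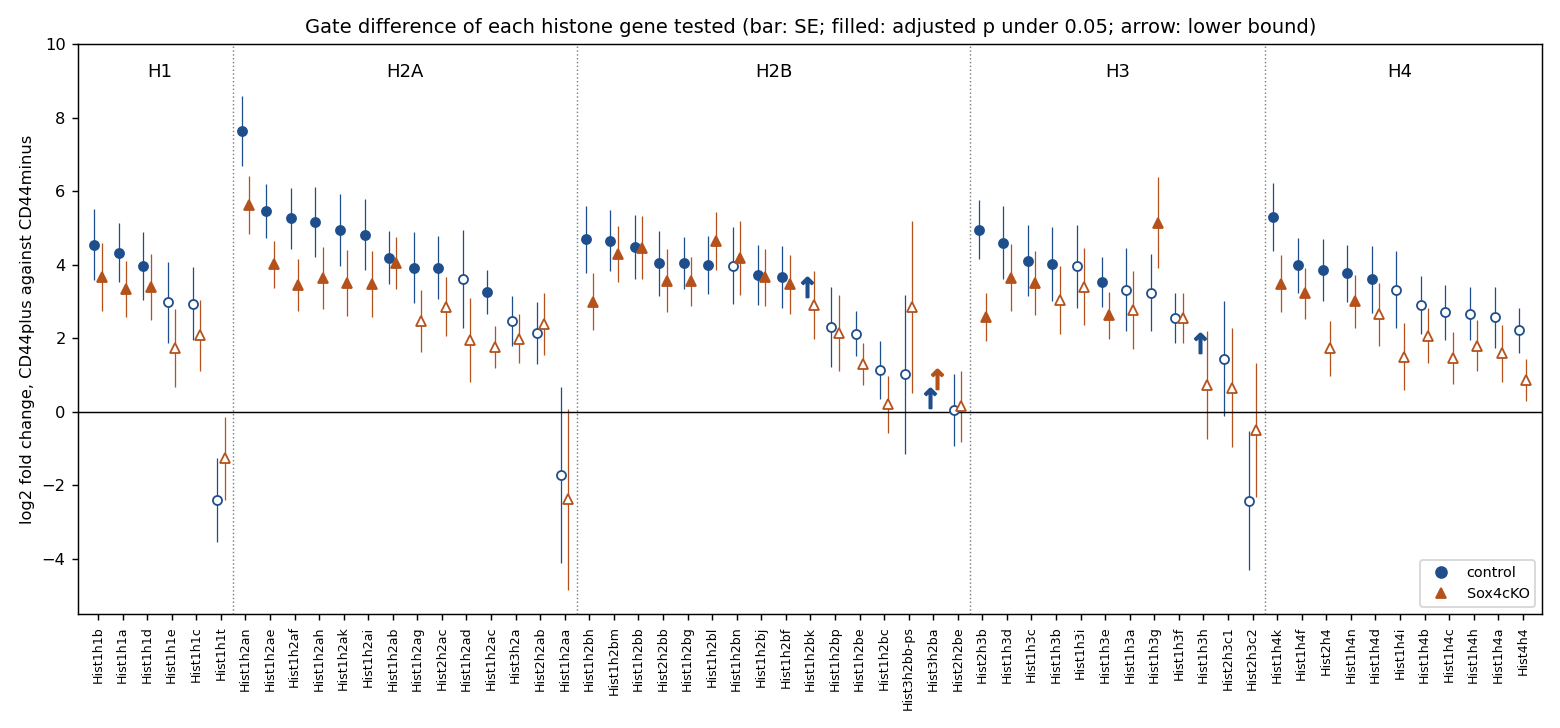
Log2 fold change of CD44plus against CD44minus for each tested histone gene, by class, in control (circles) and Sox4cKO (triangles), with the standard error as a bar, filled symbols for an adjusted p under 0.05 and arrows for lower bounds of genes with no CD44minus read. All but a few symbols lie above 0, and the open symbols near or below 0 include Hist1h1t, Hist1h2aa, Hist1h2bc, Hist2h2be and Hist2h3c2.

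Of the linker histones, 5 of 6 genes were more abundant in CD44plus and 3 passed the test in each genotype. Hist1h1e, the member with the highest CPM, was at 81.5 and 174 CPM in the control CD44minus libraries, 77.7 and 529 CPM in the Sox4cKO CD44minus libraries, 958 and 1060 CPM in the control CD44plus libraries and 857 and 1157 CPM in the Sox4cKO CD44plus libraries. The gates did not overlap, but Hist1h1e did not pass (control log2 fold change 2.98 ± 1.11 (SE), edgeR adjusted p = 0.142). Hist1h1c, known as a variant that is also made in resting cells, was at 41.8 and 82.2 CPM in the control CD44minus libraries and 421 and 532 CPM in the control CD44plus libraries, with an edgeR adjusted p of 0.114. Hist1h1b, whose transcript is closely tied to proliferation, had a larger difference: 10.8 and 18.5 CPM in the control CD44minus libraries, 7.92 and 46.9 CPM in the Sox4cKO CD44minus libraries, 330 and 355 CPM in the control CD44plus libraries and 306 and 397 CPM in the Sox4cKO CD44plus libraries. It rose by a log2 fold change of 4.53 ± 0.97 among the control mice (edgeR adjusted p = 0.0235) and by 3.67 ± 0.92 among the Sox4cKO mice (adjusted p = 0.0413). Hist1h1a (4.33 and 3.33, edgeR adjusted p = 0.0161 and 0.0266) and Hist1h1d (3.97 and 3.40, edgeR adjusted p = 0.0311 and 0.0499) also rose in both. Hist1h1b took a larger part of the H1 sum in CD44plus, where the ranges did not overlap: it was 5.28% to 6.20% of H1 CPM in CD44minus and 13.6% to 15.01% in CD44plus.

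The remaining H1 gene went the other way. Hist1h1t, the testis-specific linker histone, was at 14.8 and 12.6 CPM in the control CD44minus libraries and at 3.75 and 1.28 CPM in the control CD44plus libraries, and the gates did not overlap. In Sox4cKO it was at 7.92 and 1.09 CPM in CD44minus and at 1.59 and 1.99 CPM in CD44plus, with overlap. Neither difference passed (edgeR log2 fold change -2.41 ± 1.14, adjusted p = 0.216 in control). Hist1h2aa and Hist1h2ba, the testis forms of H2A and H2B, stayed at 2.69 CPM or less in every library.

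Among H2A genes, 10 of 14 tested members rose in control and 7 of 14 in Sox4cKO, and H2A had the highest median log2 fold change of the classes in control (4.05, and 3.15 in Sox4cKO). Hist1h2ak, with the highest CPM of the class, was at 6.06 and 11.4 CPM in the control CD44minus libraries, 6.93 and 42.2 CPM in the Sox4cKO CD44minus libraries, 235 and 312 CPM in the control CD44plus libraries and 250 and 314 CPM in the Sox4cKO CD44plus libraries. The gates were far apart, and Hist1h2ak rose in both genotypes (edgeR log2 fold change 4.94 ± 0.97, adjusted p = 0.0182, and 3.50 ± 0.89, adjusted p = 0.0430). Hist1h2ab was at 4.72 and 9.83 CPM in the control CD44minus libraries and 108 and 165 CPM in the control CD44plus libraries, and at 4.46 and 7.63 CPM against 101 and 103 CPM in the Sox4cKO mice. Hist1h2ab rose about equally in both genotypes, with 4.19 ± 0.71 in control and 4.05 ± 0.70 in Sox4cKO (edgeR adjusted p = 0.0140 and 0.0139). The smallest p of all members belonged to Hist1h2an, which had 1 read in both control CD44minus libraries together. It was at 42.9 and 67.8 CPM in the control CD44plus libraries and 34.1 and 36.4 CPM in the Sox4cKO CD44plus libraries, and its pooled control ratio of 206 had a 95% counting interval of 36.8 to 8134. In Sox4cKO its log2 fold change was 5.63 ± 0.79 (edgeR adjusted p = 0.0117). Hist1h2ae (5.46 ± 0.73 in control, edgeR adjusted p = 0.00653) and Hist1h2af (5.26 ± 0.83, edgeR adjusted p = 0.0140) had the next smallest p of this class in control.

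Some H2A genes passed in control and not in Sox4cKO, or in neither. Hist2h2ac was at 8.08 and 12.97 CPM in the control CD44minus libraries and 141 and 181 CPM in the control CD44plus libraries (log2 fold change 3.92 ± 0.86, edgeR adjusted p = 0.0256), and in Sox4cKO the adjusted p was 0.0673. Hist1h2ac was at 10.1 and 9.83 CPM in the control CD44minus libraries and 78.4 and 112 CPM in the control CD44plus libraries, and at 12.4 and 19.3 CPM against 56.0 and 52.6 CPM in the Sox4cKO mice. Both genotypes were without overlap, with an edgeR adjusted p of 0.0163 in control and 0.112 in Sox4cKO. The test of the difference between genotypes passed for neither gene. Hist3h2a, which lies apart from the large clusters, was at 8.76 and 20.4 CPM against 76.8 and 88.2 CPM in the control mice (2.47 ± 0.69, edgeR adjusted p = 0.0646). Hist3h2a overlaps the gene Trim17, and its reads are uncertain.

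Among H2B genes, 9 of 16 tested members rose in each genotype. Hist2h2bb carried 40.2% of the H2B sum in control CD44plus. It was at 8.76 and 22.8 CPM in the control CD44minus libraries, 9.90 and 33.5 CPM in the Sox4cKO CD44minus libraries, 218 and 309 CPM in the control CD44plus libraries and 205 and 312 CPM in the Sox4cKO CD44plus libraries. It rose in both genotypes (edgeR log2 fold change 4.04 ± 0.88, adjusted p = 0.0254, and 3.56 ± 0.86, adjusted p = 0.0350). Hist1h2bg was at 1.35 and 4.72 CPM against 40.6 and 67.0 CPM in the control mice and at 2.97 and 5.72 CPM against 43.2 and 61.6 CPM in the Sox4cKO mice, and it rose by 4.04 ± 0.70 and 3.54 ± 0.66 (edgeR adjusted p = 0.0140 and 0.0146). Hist1h2bb and Hist1h2bm also passed in both, with values of 4.49 and 4.65 in control and 4.46 and 4.28 in Sox4cKO. Hist1h2bk had no read in the control CD44minus libraries and was at 14.5 and 18.8 CPM in the control CD44plus libraries, which makes it at least 10.4-fold higher there (with a floor of 3 reads in each CD44minus library). In Sox4cKO it was at 0.495 and 4.36 CPM in CD44minus and 18.4 and 20.4 CPM in CD44plus.

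Hist1h2bc and Hist2h2be, H2B genes known for polyadenylated messages in differentiated cells, had small differences between gates. Hist1h2bc was at 16.8 and 47.6 CPM in the control CD44minus libraries, 12.9 and 109 CPM in the Sox4cKO CD44minus libraries, 67.2 and 75.8 CPM in the control CD44plus libraries and 58.9 and 82.2 CPM in the Sox4cKO CD44plus libraries. Its highest library was the Sox4cKO CD44minus library of replicate 2, so the gates overlapped in Sox4cKO, and the log2 fold changes were 1.14 ± 0.79 and 0.20 ± 0.77 (edgeR adjusted p = 0.340 and 0.890). Hist2h2be was at 6.06 and 6.29 CPM, 7.43 and 3.54 CPM, 4.65 and 8.22 CPM and 3.76 and 8.15 CPM in the same order of groups. Its gates overlapped in both genotypes, and the log2 fold changes of 0.05 ± 0.98 and 0.14 ± 0.97 changed sign with the scaling or the tool. A p that misses the threshold does not show that Hist2h2be was equal in the gates, and these standard errors leave room for differences of either sign. Hist1h1c, Hist3h2a and Hist4h4, also listed here for polyadenylated messages, had larger ratios of control group means (7.70, 5.65 and 4.76). Hist3h2ba, an H2B gene of the same list, had 0 reads in every CD44minus library. It had 34 and 6 reads in control CD44plus (at least 1.29-fold higher) and 15 and 22 in Sox4cKO CD44plus.

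Among H3 genes, 5 of 12 members rose in each genotype, and the class had the lowest sum. Hist1h3e had the highest CPM, at 5.39 and 8.26 CPM in the control CD44minus libraries, 5.94 and 18.8 CPM in the Sox4cKO CD44minus libraries, 69.6 and 90.2 CPM in the control CD44plus libraries and 64.2 and 91.5 CPM in the Sox4cKO CD44plus libraries. It rose in both genotypes (edgeR log2 fold change 3.52 ± 0.69, adjusted p = 0.0179, and 2.62 ± 0.64, adjusted p = 0.0365). Hist2h3b was at 0.674 and 1.18 CPM against 26.9 and 34.7 CPM in the control mice and at 2.97 and 6.54 CPM against 33.8 and 25.01 CPM in the Sox4cKO mice, with 4.95 ± 0.81 and 2.58 ± 0.65 (edgeR adjusted p = 0.0140 and 0.0418). Hist1h3c passed in both (4.10 and 3.50). Hist1h3f missed the threshold narrowly in both, with 2.55 ± 0.69 in control and 2.55 ± 0.67 in Sox4cKO (edgeR adjusted p = 0.0569 and 0.0507). Hist1h3g passed in Sox4cKO, where it had 2 reads in CD44minus and a pooled ratio of 39.4 (95% counting interval 10.8 to 327). H3 genes are also the least distinct in sequence, with a median of 38.0% of 50-base windows found in no other transcript.

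Among H4 genes, all 11 tested members were higher in CD44plus in both genotypes without overlap, yet only 5 passed in control and 3 in Sox4cKO. Hist1h4d was at 12.1 and 33.4 CPM in the control CD44minus libraries, 12.4 and 66.2 CPM in the Sox4cKO CD44minus libraries, 243 and 318 CPM in the control CD44plus libraries and 236 and 259 CPM in the Sox4cKO CD44plus libraries. It rose in control (3.61 ± 0.91, edgeR adjusted p = 0.0451) and missed the threshold in Sox4cKO (2.64 ± 0.87, edgeR adjusted p = 0.121). Hist2h4 was at 2.02 and 7.86 CPM against 56.4 and 95.7 CPM in the control mice and at 3.96 and 28.6 CPM against 47.6 and 62.4 CPM in the Sox4cKO mice. It rose in control (3.86 ± 0.84, edgeR adjusted p = 0.0251) but not past the threshold in Sox4cKO (1.72 ± 0.74, edgeR adjusted p = 0.238). Hist1h4f and Hist1h4k rose in both genotypes, with 3.98 and 5.30 in control. Hist4h4, the sole gene of its cluster, was at 6.06 and 15.7 CPM against 43.0 and 60.8 CPM in the control mice and at 14.9 and 26.7 CPM against 39.5 and 37.0 CPM in the Sox4cKO mice, one of the smaller differences (2.21 ± 0.61, edgeR adjusted p = 0.0607, and 0.87 ± 0.57, adjusted p = 0.406).

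To compare levels between genes, CPM was divided by the shorter of the RefSeq and GENCODE exon lengths. The annotation used for counting is not given, and some models are longer, as for Hist1h1e with 1930 bases against the 782 used here. Hist1h2ak and Hist2h2bb had 47.7% and 46.4% of 50-base windows found in no other transcript. The scale corrects for neither, so the order of genes is approximate. On this scale Hist1h1e was at 1288 CPM per kb in control CD44plus, Hist1h4d at 698, Hist1h2ak at 695, Hist2h2bb at 691, Hist1h1c at 658 and Hist1h1b at 461. Reads were spread unevenly within each class. In control CD44plus the 3 most abundant members made up 77.8% of H1 CPM, 59.4% of H2B, 55.5% of H4, 53.2% of H3 and 49.8% of H2A. At the other end, 47 of 62 members exceeded 10 CPM in both control CD44plus libraries, and 7 did so in both control CD44minus libraries.

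The members were also ordered by where their annotated transcript ends, since messages that end at the stem-loop and messages that run on differ in processing. Members whose model ended within 100 bases after the stem-loop (19 genes) had a median log2 fold change of 3.84 in control, and 12 of 18 tested rose. Members with no stem-loop in the model and an end within 100 bases of the coding part (17 genes, models that stop short of it) had a median of 4.67, or 4.43 with lower bounds, and 11 of 16 rose. Members whose model ran over 100 bases past the stem-loop (23 genes, among them Hist1h1c, Hist1h1e, Hist1h4d, Hist2h4 and Hist4h4) had a median of 3.12, or 2.96 with lower bounds, and 9 of 22 rose. In Sox4cKO the medians were 3.01, 3.47 and 1.87, with 9 of 18, 12 of 16 and 6 of 22 called. The remaining kind, a long model with no stem-loop, held Hist1h2bc and Hist2h2be, with a median of 0.59 in control and 0.17 in Sox4cKO. These 2 genes gave 6.2% to 8.1% of histone CPM in CD44minus libraries and 1.4% to 1.6% in CD44plus libraries. Read counts over a gene do not show which end a message had, and no test of the difference between these kinds was made.

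**Figure D3:**
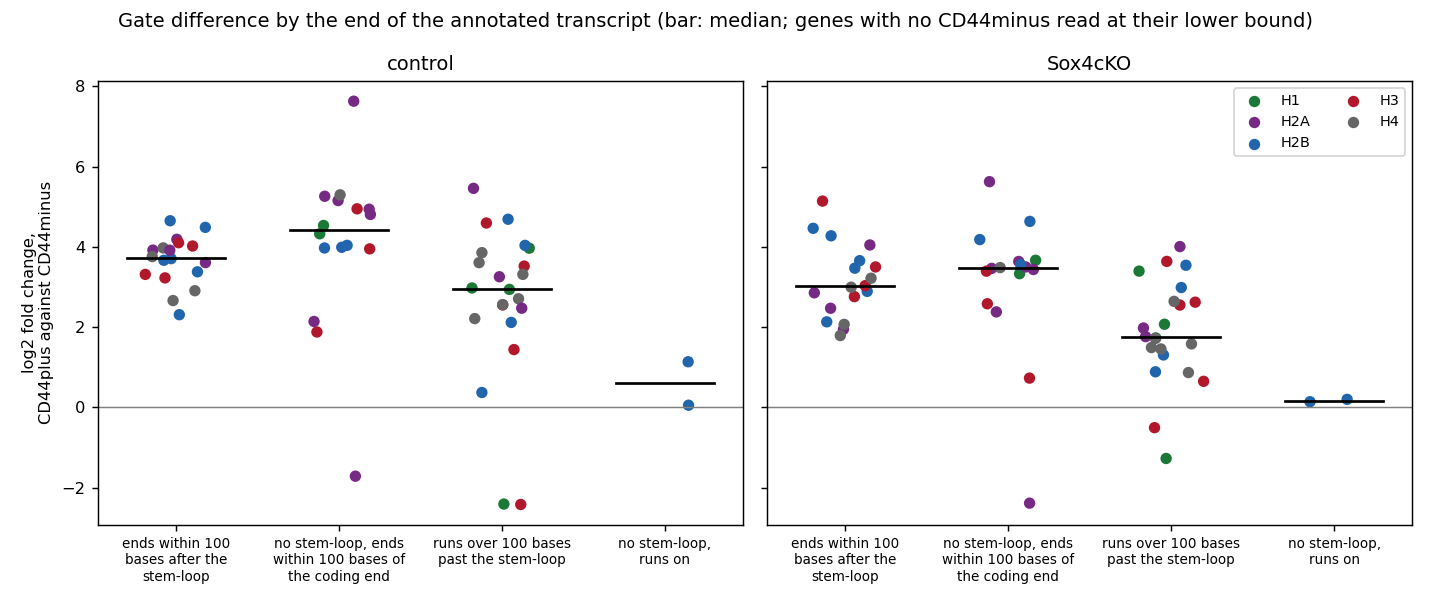
Log2 fold change of CD44plus against CD44minus for each tested histone gene (1 point per gene, coloured by class), by where its annotated transcript ends, with a bar at the median and genes without CD44minus reads at their lower bound; the pseudogene Hist3h2bb-ps is left out. In both genotypes the medians are lower for models that run on, and the pair with no stem-loop and a long model lies nearest 0.

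Many H2A and H2B genes start back to back and share the sequence between them, which allowed a comparison within 11 such pairs, whose starts are 164 to 281 bases apart. In the 10 pairs with both genes tested, the median distance between the 2 log2 fold changes in control was 1.44, beside 1.59 over all 224 combinations of a tested H2A with a tested H2B gene. Both medians use fitted values without lower bounds. They include Hist1h2bk at 9.51 (0 control CD44minus reads, lower bound 3.38) and Hist1h2an at 7.63 (1 read), so some distances rest on very few reads. The pairs of Hist2h2ac with Hist2h2be and of Hist1h2ac with Hist1h2bc show how far 2 genes with 1 shared upstream stretch could differ: 3.92 against 0.05 for the first pair and 3.26 against 1.14 for the second. The sequence between the starts (RefSeq, GRCm38.p6) is given from the plus-strand gene to the H2A gene, read on the minus strand, with motif matches in capitals.
Hist2h2ac and Hist2h2be, chr3:96220881-96221071: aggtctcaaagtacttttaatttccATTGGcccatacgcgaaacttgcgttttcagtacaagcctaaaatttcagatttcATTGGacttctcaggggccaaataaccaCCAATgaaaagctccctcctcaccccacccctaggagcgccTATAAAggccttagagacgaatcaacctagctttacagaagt
Hist1h2ac and Hist1h2bc, chr13:23683960-23684198: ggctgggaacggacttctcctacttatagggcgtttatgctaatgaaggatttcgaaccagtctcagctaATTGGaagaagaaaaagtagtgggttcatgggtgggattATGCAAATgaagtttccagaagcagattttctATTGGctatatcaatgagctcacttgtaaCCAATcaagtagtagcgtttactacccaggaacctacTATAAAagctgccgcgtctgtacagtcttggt
Both stretches hold CCAAT boxes on both strands and a TATA box before the H2A gene. The stretch of Hist1h2ac and Hist1h2bc also holds an octamer, described below. The octamer upstream of Hist2h2ac lies just past the start of Hist2h2be and so outside the stretch printed here.

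The capitals mark 4 short motifs searched on both strands: the octamer ATTTGCAT, the CCAAT box, the TATA box TATAAA and the H1 box AAACACA, none of which contains another. Promoters of 300 bases (250 before and 50 after the start, RefSeq) were found for 56 members, with a single start used per member. The background of 32851 promoters holds every listed start, so a gene can be in it more than once. The octamer was in 7 of 15 H2A and 6 of 14 H2B promoters, in none of the other classes, and in 1.735% of all promoters. CCAAT was in 48 of 56, including every H1, H2A, H2B and H3 promoter but 3 of 11 H4 promoters, and in 37.41% of all. TATAAA was in 33 of 56 and in 13.62% of all, and AAACACA in 9 of 56, which were 5 of 6 H1, 2 of 15 H2A and 2 of 14 H2B promoters, and in 7.184% of all. A match is a description of these letters, not evidence of binding. The 250 bases before the start of 4 members that rose together or lead their class show the layout, 5′ to 3′ on the gene's strand.
Hist1h1e, chr13:23622559-23622808, minus strand: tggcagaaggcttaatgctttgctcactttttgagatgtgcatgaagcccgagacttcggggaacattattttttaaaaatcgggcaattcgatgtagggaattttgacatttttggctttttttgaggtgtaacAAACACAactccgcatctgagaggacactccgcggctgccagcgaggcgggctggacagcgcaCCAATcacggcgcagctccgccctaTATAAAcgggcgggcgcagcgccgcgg
Hist1h1b, chr13:21780626-21780875, minus strand: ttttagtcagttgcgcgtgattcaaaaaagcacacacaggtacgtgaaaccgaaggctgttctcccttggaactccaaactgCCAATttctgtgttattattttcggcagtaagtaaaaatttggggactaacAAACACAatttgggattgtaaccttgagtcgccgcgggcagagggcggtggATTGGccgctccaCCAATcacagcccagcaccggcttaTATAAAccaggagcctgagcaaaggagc
Hist1h2ab, chr13:23750838-23751087, plus strand: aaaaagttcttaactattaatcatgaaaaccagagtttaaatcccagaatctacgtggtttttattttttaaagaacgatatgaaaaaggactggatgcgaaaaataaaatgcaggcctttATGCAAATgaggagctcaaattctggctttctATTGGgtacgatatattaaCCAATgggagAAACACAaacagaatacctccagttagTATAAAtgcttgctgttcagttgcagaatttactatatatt
Hist1h4d, chr13:23581318-23581567, plus strand: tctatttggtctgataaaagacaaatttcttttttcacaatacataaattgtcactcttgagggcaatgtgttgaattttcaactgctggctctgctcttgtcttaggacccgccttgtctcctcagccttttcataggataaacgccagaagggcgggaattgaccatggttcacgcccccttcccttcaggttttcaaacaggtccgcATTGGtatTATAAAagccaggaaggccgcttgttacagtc
An H1 box, a CCAAT box and a TATA box follow each other in that order in Hist1h1e and Hist1h1b. Hist1h1a, which passed as higher in CD44plus, had no match to the H1 box. Hist1h1t, which was lower in CD44plus in control without passing, had a match. A link between these motifs and the gate differences was not tested.

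By cluster, 28 of 47 tested Hist1 genes and 4 of 8 Hist2 genes rose in control, and none of the 3 Hist3 genes or the Hist4 gene did. In Sox4cKO the counts were 25 of 47 and 2 of 8. Hist1 genes gave 83.1% to 88.9% of histone CPM in every library. The ratio of group means between gates was 10.7 for Hist1, 12.1 for Hist2, 5.62 for Hist3 and 4.76 for Hist4 in control.

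Loss of Sox4 in the crypt-enriched gate came with no histone gene past the edgeR threshold. The histone sum in Sox4cKO CD44plus was 0.95 of the control mean, with 1.06 for H1, 1.00 for H2B, 0.94 for H3, 0.83 for H2A and 0.77 for H4. The edgeR test called 0 of 59 members, beside 0% of all genes, and 0 members had an unadjusted p under 0.05 in edgeR, DESeq2 or limma. Of all genes, 0.627% had an unadjusted edgeR p under 0.05. The tested members had a median log2 fold change of -0.15, with 19 above and 40 below 0. In 3 members (Hist1h2bm, Hist1h2bp and Hist1h3a) both Sox4cKO libraries were above both control libraries and in 15 both were below, while of all genes 14.2% and 16.4% were so placed. The 4 mast cell markers summed to 1647 and 2820 CPM in the control CD44plus libraries and 3389 and 16790 CPM in the Sox4cKO CD44plus libraries, and their part in this comparison was not tested.

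The lean toward lower values in Sox4cKO was most uniform in H4 and H2A, while H3 genes lay on both sides of 0. All 11 tested H4 genes had a negative log2 fold change (-0.72 to -0.18, median -0.44), and in 5 of them the groups did not overlap. Hist1h4h was at 75.6 and 95.3 CPM in the control CD44plus libraries and 49.0 and 57.7 CPM in the Sox4cKO CD44plus libraries, a log2 fold change of -0.68 ± 0.66. Hist1h4a was at 37.2 and 63.6 CPM against 29.6 and 31.6 CPM (-0.72 ± 0.74). Of 14 H2A genes, 13 were negative (median -0.30) and 7 did not overlap. Hist1h2ac, at 78.4 and 112 CPM in the control mice and 56.0 and 52.6 CPM in the Sox4cKO mice, had -0.81 ± 0.54. Hist1h2ah (30.4 and 37.6 CPM against 28.8 and 13.7 CPM) and Hist1h2an (42.9 and 67.8 CPM against 34.1 and 36.4 CPM) had the next smallest p of the class. Among H3 genes, both Sox4cKO libraries were below both controls in Hist1h3b, Hist1h3h and Hist2h3c1, and above them in Hist1h3a. Hist2h3c1 had one of the smallest p of this comparison and was at 0.27 of its control mean. It was at 5.63 and 2.37 CPM in the control mice and 1.59 and 0.568 CPM in the Sox4cKO mice. These levels rest on 63 and 13 reads against 11 and 6 reads. H1 and H2B medians were 0.03 and 0.05. No member's edgeR adjusted p was under 1. The members' median became 0.063 without control CD44plus replicate 2. With the replicate number as a block, Hist1h2ac, Hist1h4a and Hist1h4h passed as lower, 3 of 57 members tested, in a fit that called 3.31% of all genes and 1.3% as lower, but that number marks no shared animal between genotypes.

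**Figure D4:**
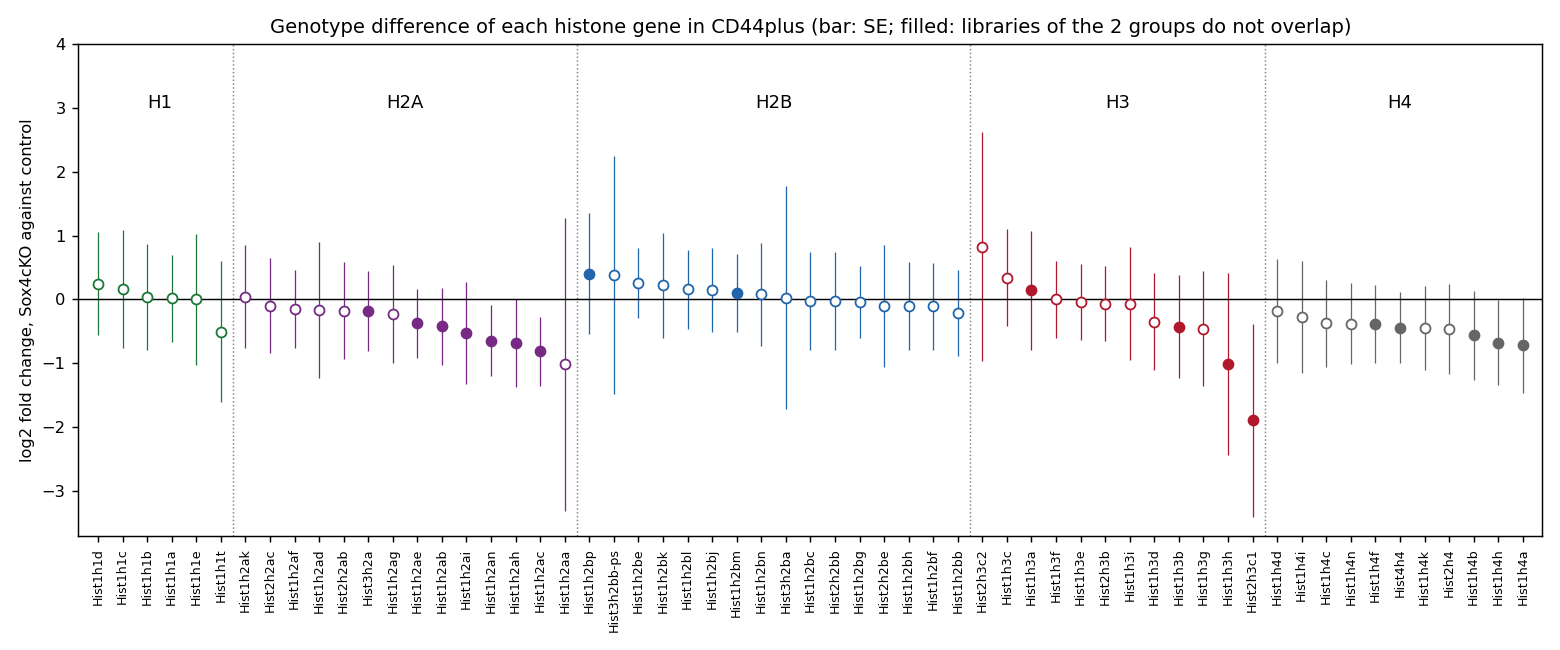
Log2 fold change of Sox4cKO against control in CD44plus for each tested histone gene, by class, with the standard error as a bar and filled symbols where the 2 libraries of one group lie outside the range of the other. H4 and most H2A symbols lie below 0, H3 symbols lie on both sides of 0, H1 and H2B symbols lie around 0, and no gene passed the edgeR test.

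In the villus-enriched gate the genotype comparison moved with 1 library. The histone sum was 1.86 times higher in the Sox4cKO mean, from 328 and 1533 CPM against 334 and 664 CPM, so replicate 1 was at the control level and replicate 2 above both controls. The edgeR test called 0 of 59 members, beside 0% of all genes. At an unadjusted p under 0.05, 3 members were higher in edgeR (Hist1h2bk, Hist1h3h and Hist2h3b), 2 in DESeq2 (Hist1h2bk and Hist2h3b) and 1, Hist1h1t, was lower in limma, beside 0.568%, 0.573% and 1.26% of all genes in either direction, and DESeq2 and limma also called none after adjustment. Hist1h2bk and Hist1h3h had 0 reads in both control CD44minus libraries. Hist1h2bk had 1 and 16 reads in the Sox4cKO CD44minus libraries, and Hist1h3h had 0 and 12. The median log2 fold change was 0.68 (0.19 over all genes). It became -0.58 without Sox4cKO CD44minus replicate 2, and without Sox4cKO CD44minus replicate 1 the fit called 21 of 59 members beside 37.6% of all genes, a share near this background. In 6 members both Sox4cKO libraries were above both controls and in 3 both were below, against 6.52% and 5.94% of all genes. Hist2h3b was among the 6, at 0.674 and 1.18 CPM in the control mice and 2.97 and 6.54 CPM in the Sox4cKO mice (2.30 ± 0.84, edgeR adjusted p = 1.00). The test of whether the genotype effect differed between gates called 0 of 59 members and 0% of all genes, with the same 3 members at an unadjusted p under 0.05 in edgeR, 1 in DESeq2 (Hist1h2bk) and 0 in limma, beside 0.245%, 0.215% and 1.61% of all genes. Its median of -0.87 became 0.27 without Sox4cKO CD44minus replicate 2, and 2 members, Hist1h2bk and Hist2h4, were called without Sox4cKO CD44minus replicate 1, where 1.26% of all genes were called.

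Genes that work beside the histones differed between gates to unequal degrees. Of 32 S phase genes (replication enzymes and their regulators), 18 rose in control and 21 in Sox4cKO, with medians of 2.59 and 2.82. Of 18 G2 and M phase genes, 12 and 9 rose, with medians of 2.77 and 2.75. Of 22 histone chaperone and deposition genes, 3 rose in each genotype, among them Hat1, which acetylates new H4, and Mcm2, a helicase subunit that also holds histones. Of 19 histone message processing genes, 2 rose in control, Ncbp2 and Eri1, the exonuclease that trims histone message ends, and Eri1 alone rose in Sox4cKO. Slbp, the stem-loop binding protein, was at 7.41 and 27.1 CPM in the control CD44minus libraries, 13.9 and 74.4 CPM in the Sox4cKO CD44minus libraries, 97.7 and 93.0 CPM in the control CD44plus libraries and 110 and 112 CPM in the Sox4cKO CD44plus libraries. The gates did not overlap, and it missed the threshold in both genotypes (edgeR log2 fold change 2.44, adjusted p = 0.103, and 1.32, adjusted p = 0.354). Npat, which switches on histone gene transcription at the start of S phase, was at 15.5 and 17.7 CPM against 58.3 and 64.1 CPM in the control mice (1.88, edgeR adjusted p = 0.0894). Casp8ap2, Lsm10 and Lsm11, further factors of histone gene expression, had 1.00, 0.28 and 0.76 in control, and none passed. Of 13 tested replication-independent histone genes, 2 rose in control, H2afx and Cenpa, and Cenpa alone rose in Sox4cKO. H2afx, the variant phosphorylated at DNA breaks, was at 14.1 and 27.1 CPM against 186 and 236 CPM in the control mice. Cenpa, the H3 variant of centromeres, was at 0.674 and 3.93 CPM against 38.2 and 55.9 CPM.

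The ratios within animals can be set beside those of the histone genes, 14.0 and 8.77 among control mice and 13.2 and 3.68 among Sox4cKO mice. The ratio of CD44plus to CD44minus was 6.99 and 6.29 in control and 7.09 and 4.90 in Sox4cKO for S phase genes, and 10.2, 11.4, 7.86 and 9.62 for G2 and M phase genes. For replication-independent histones it was 4.20, 2.39, 3.89 and 1.08, for chaperones 4.70, 3.01, 4.41 and 1.80, and for message processing 3.76, 2.55, 3.55 and 1.40. Sox4cKO animal 2 had the lowest ratio for the histone genes, S phase, chaperone, processing and replication-independent lists, but not for G2 and M phase genes. Its CD44minus library is the one with the low background described above, and the part of that in the ratios was not tested.

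**Figure D5:**
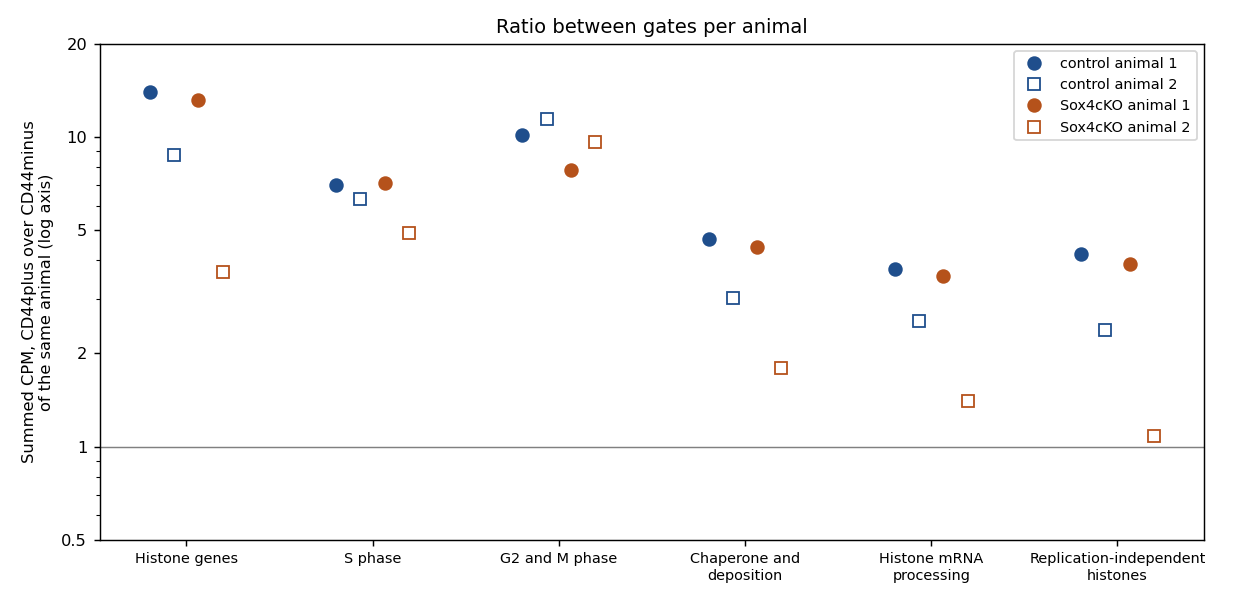
Ratio of summed CPM between CD44plus and CD44minus libraries of the same animal (log axis) for the histone genes and 5 other gene lists, with 1 symbol per animal. Sox4cKO animal 2 is lowest in each list but G2 and M phase, where Sox4cKO animal 1 is lowest.

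Near-identical copies limit what single members and comparisons of levels between classes can show. Of the 62 members, 13 had under 25% of 50-base windows found in no other annotated transcript and 18 had over 75%, and reads with several possible positions were left uncounted. The 5 symbols at 0 in every library (Hist1h2ao, Hist1h2ap, Hist1h2bq, Hist1h2br and Hist2h2aa1) had 0% to 10.6% of such windows. Members with under 50% of such windows were called more often than the rest in both genotypes. In control, 8 of 12 tested members under 25%, 9 of 14 from 25% to 50%, 7 of 16 from 50% to 75% and 8 of 17 over 75% passed, with median log2 fold changes of 4.40, 3.69, 3.31 and 3.26. In Sox4cKO these were 8, 8, 6 and 5 members, with medians of 3.42, 3.25, 2.80 and 2.07. With members that had no CD44minus read at their bound, the medians were 3.98, 3.64, 3.31 and 2.94 in control and 3.42, 3.25, 2.80 and 1.76 in Sox4cKO. The part of uncounted reads in this order was not tested. Hist1h2be overlaps Hist1h1e on the same strand, so reads in the shared stretch cannot be told apart.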

How the data were processed

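Total RNA of 8 libraries was sequenced (SMARTer Stranded Total RNA-seq Pico Input kit, per the labels' protocols). The authors deposited raw read counts per gene symbol, 1 table per library with HTSeq's summary lines. Build mm10, HTSeq 0.6.1p1, STAR 2.2.5b, Trimmomatic 0.36 and bcl2fastq 2.17.4 stand in the submitters' processing notes. The strand setting and the annotation are not given in the sources used here, so overlapping genes are uncertain. HTSeq gave no gene to reads with several possible positions, which lowers counts of near-identical histone genes.

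The counts were fitted in R 4.3.3 with edgeR 4.0.16 (quasi-likelihood test, 4 groups, all 8 libraries, filterByExpr with a minimum count of 10, TMM scaling, Benjamini-Hochberg adjustment over 20427 genes, threshold 0.05). The biological coefficient of variation was 0.616. Summary lines were left out of totals and tests, and the fit was tested on simulated data. Alternatives used DESeq2 1.42.0, limma 3.58.1, other scalings and filters, subtraction of background estimated on 1441 receptor genes, the 45S RNA gene Rn45s left out, an animal or replicate-number block, fits of 4 libraries and fits without single libraries. The fit without both libraries of Sox4cKO animal 2 was chosen after seeing the data. Replicates are separate mice, and both gates of 1 number and genotype come from 1 animal, as the table names show. The correlation of their deviations from the group means was 0.103 in control and 0.526 in Sox4cKO. A count of 0 allows 3 counts, and as no molecular identifiers were used, intervals describe counting error alone.

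All 62 members matched GENCODE M21 and RefSeq symbols. Values are given for members drawn by a naming rule. It took the 4 members of highest CPM in each class, every H1 gene and genes known for polyadenylated or testis messages. It also took the 6 smallest p per comparison and members past the threshold (up to 10 per comparison). Hist1h2ai, Hist1h4c, Hist1h2bl and Hist1h2bj met this rule as well, but their values are not given here. Genes named beside counts of 5 or fewer outside this rule were chosen after their values were seen. The histone family, its rule and the other lists were chosen with earlier results of these data known, though the rule itself uses only names and total reads.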

Additional observations from a re-analysis of the deposited data

How the results depend on the processing

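Leaving out 1 library gave these ranges of called members: 0 to 53 members in control between gates, 2 to 48 in Sox4cKO between gates, 0 to 21 for genotype in CD44minus, 0 to 2 for the difference of the genotype effect and 0 to 0 for genotype in CD44plus. All genes moved too: the fits with 53, 53, 48 and 21 calls, each without a Sox4cKO CD44minus library, called 36.4%, 34.6%, 40.9% and 37.6% of all genes. The medians ranged from 3.497 to 4.11, 2.55 to 4.02, -0.579 to 1.32, -1.43 to 0.274 and -0.314 to 0.0634 in that order. In these fits the lone library of a group is assumed to vary like the others. Without both libraries of Sox4cKO animal 2, 54 members were called in control and 48 in Sox4cKO (median 3.87), beside 49.9% and 29.9% of all genes, and the medians became -0.598 for genotype in CD44minus and 0.226 for the difference. With the animal as a replicate block, 50 and 41 members were called (17.9% and 8.38% of all genes), and with the replicate number as a block 3 members were lower in Sox4cKO CD44plus (3.31% of all genes called); the block changed no other call count beyond 1.5 times. Only the 4 libraries of a genotype gave 53 calls in control and 0 in Sox4cKO (54.9% and 0% of all genes). The other alternatives gave 28 to 43 calls in control and 20 to 35 in Sox4cKO, beside 2.74% to 10.8% and 3.14% to 9.98% of all genes. The causes were not tested.

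Signs turned for few genes. Between gates in control, Hist2h2be had -0.283 with DESeq2, -0.282 with its size factors, -0.0229 with background subtracted, -0.53 with totals alone, -0.104 with limma, -0.176 with only the control libraries, -0.0318 without Rn45s and -0.409 to 0.400 without single libraries, and Hist1h2aa ranged from -2.61 to 0.107 without single libraries. Between gates in Sox4cKO, Hist2h2be had -0.183 with DESeq2, -0.194 with its size factors, -0.512 with totals alone, -0.147 with only Sox4cKO libraries and -0.976 without animal 2. Without single libraries it ranged from -0.513 to 0.753, Hist1h2bc from -0.63 to 2.46, Hist1h1t from -2.12 to 0.711, Hist1h2aa from -5.47 to 3.44, Hist2h3c1 from -0.133 to 1.21 and Hist1h3h from -0.178 to 7.06. For genotype in CD44minus, Hist2h4 had -0.463 without animal 2 and ranged from -0.462 to 3.02, and Hist1h3g from -3.23 to 4.17. The difference of effects of Hist2h4 ranged from -3.49 to 0.00149. Depth limited CD44minus: 34 members had under 10 reads in each control library.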
